A study of Mus musculus with 69 samples.

Results

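A group of 6 long non-coding RNA (lncRNA) genes was followed across stressors and vascular cell types: Gm33228, AI838599, Malat1, Neat1, Gas5 and Dnm3os. They are 6 of the 56953 genes in the count tables and 6 of the 11140 genes that the annotation classes as lncRNA, and all 6 were found by symbol. Gm33228 and AI838599 were chosen by their fold changes and FDR in WT VSMC, where Gm33228 was a differentially expressed gene (DEG) under ALL and AI838599 under HG+FFA and ALL. Their values in WT VSMC are therefore a description without a test. AI838599 was tested only in KO VSMC and EC, and Gm33228 only in EC, over animals. Malat1, Neat1, Gas5 and Dnm3os were selected on their abundance, so that their levels are described and their stressor effects tested.

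Poly(A) RNA-Seq counts of 69 libraries were used, all from primary cells of male C57BL/6 mice. WT VSMC were smooth muscle cells of the aorta from animals with intact Egfr (sets 1 to 4), and KO VSMC came from animals in which a Cre driven by the SM22 promoter, a smooth muscle promoter, recombines a floxed Egfr gene (sets 5 to 8). EC were cardiac endothelial cells, isolated with beads as CD45-/CD31+ cells (sets 9 to 18). Cells of a set came from the same animal and were cultured for 24 h under Control conditions, with HG+FFA (20 mM glucose and free fatty acids, which the labels give as 100 µM and the methods as 100 µM each of oleate and palmitate), with AII+NA (30 nM angiotensin II and 300 nM of a catecholamine, which the labels call epinephrine and the methods norepinephrine) or with ALL of these. All conditions, Control included, contained bovine serum albumin and were preceded by serum-free medium. WT VSMC had n = 4 in each condition. KO VSMC had n = 4, and n = 3 under ALL. EC had n = 9 for Control and AII+NA and n = 10 for HG+FFA and ALL, and sets 17 and 18 came from the same animal. By the animal numbers of the labels, EC sets 9 and 10 came from the animals of WT VSMC sets 1 and 2.

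Several libraries stand apart or go against their labels, which bears on the results that follow. Egfr, the gene targeted in KO VSMC, had set means of 246 to 430 FPM (fragments scaled to a library size of 1000000 after TMM normalization) in WT VSMC and of 0.960 to 1.84 FPM in KO VSMC sets 6 to 8, while KO VSMC set 5 kept 36.5 FPM. EC sets 15 and 16, labelled wild type, carry the animal numbers of KO VSMC sets 7 and 6 and had 9.31 and 2.61 FPM of Egfr. The summed FPM of 8 endothelial markers was 57.2, 132 and 58.1 in EC sets 9, 11 and 13, 537 to 4215 in the other 7 EC sets and 1.68 to 54.4 in WT VSMC. The 8 smooth muscle markers all had higher medians in both VSMC groups than in EC, with overlapping libraries, such as Acta2 (875 FPM in the WT cells, 1286 FPM in the KO cells and 515 FPM in EC) and Lmod1 (36.8, 59.3 and 17.3 FPM). Tagln (4.01 FPM) and Myocd (0.254 FPM), which define this cell type too, had low medians in WT VSMC. VSMC and EC carry different batch labels, and batch and cell type cannot be told apart. In these bulk libraries fewer cells of a type and less RNA per cell cannot be told apart either.

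LncRNAs are transcripts without a long open reading frame, many of which are retained in the nucleus. Malat1 is a very abundant transcript of nuclear speckles, the domains that store splicing factors, and Neat1 is the RNA scaffold of paraspeckles, nuclear bodies assembled with proteins such as Nono and Sfpq. Gas5 is the spliced host transcript of several small nucleolar RNAs (snoRNA) and is degraded during translation by nonsense-mediated decay. Dnm3os, transcribed antisense within the gene of dynamin 3, is the precursor of miR-199a and miR-214, microRNAs known from mesenchymal and fibrotic tissue. For Gm33228 and AI838599 only the annotation is known here.

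Per kb of exon, counting all annotated exon bases of a gene, the mean level in WT VSMC under Control was 81.7 FPM per kb for Malat1, 42.9 for Gas5, 12.3 for Neat1, 3.34 for Dnm3os, 0.310 for AI838599 and 0.0315 for Gm33228. The libraries of neighbours in this order did not overlap. In KO VSMC the order began with Gas5 (59.6 FPM per kb) before Malat1 (39.7), and these overlapped, whereas the later places were as in WT VSMC and did not overlap. In EC the order was that of WT VSMC, from 108 FPM per kb for Malat1 to 0.000334 for Gm33228, but Malat1 overlapped Gas5, Neat1 overlapped Dnm3os and Dnm3os overlapped AI838599. Single isoforms can be much shorter than all exon bases of a gene, and the order depends on the length used. By mean FPM under Control, Neat1 (275 FPM) stood above Gas5 (181 FPM) in WT VSMC. In KO VSMC Neat1 (342 FPM) stood above Malat1 (313 FPM) and Gas5 (252 FPM). Among the 11140 lncRNA genes Malat1 ranked 1 by level per kb in WT VSMC and in EC and 6 in KO VSMC. In FPM it made up 8.43% of all lncRNA signal in the WT cells, 4.38% in the KO cells and 11.9% in EC.

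A gene was called a DEG when both DESeq2 and the quasi-likelihood test of edgeR gave an FDR under 0.05, its |log2FC| was at least 0.64 and its mean reached 3 FPM in a group compared. In the fits of stressor effects all 6 members passed the filter on low counts in VSMC and 5 in EC. In the comparisons of Control libraries Gm33228 did not pass it. None of the members that were tested was called in any of the 15 comparisons, also by edgeR alone or by DESeq2 alone with the same limits on log2FC and FPM. In KO VSMC and EC the group means of Gm33228 and AI838599 were all under 3 FPM, so that no call was possible for them there. Of all genes tested, 0.284% were called under HG+FFA, 0.0473% under AII+NA and 2.24% under ALL in WT VSMC. The corresponding shares were 0.291%, 0.0% and 0.314% in KO VSMC, and 0.676%, 0.0% and 0.636% in EC. At an unadjusted p under 0.05 edgeR gave 1711 genes for AII+NA in KO VSMC and 1136 in EC, and DESeq2 alone called 7 and 0 genes there. Of all genes 21.7% had an unadjusted p of edgeR under 0.05 in WT VSMC under ALL, 6.62% in EC under AII+NA, and a share between these in the other 7 stressor comparisons. Among AI838599 and the 4 abundant lncRNAs such a p was found for Dnm3os in WT VSMC under AII+NA and ALL and in KO VSMC under AII+NA, and for Malat1 in KO VSMC under HG+FFA and AII+NA and in EC under HG+FFA.

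**Figure D1:**
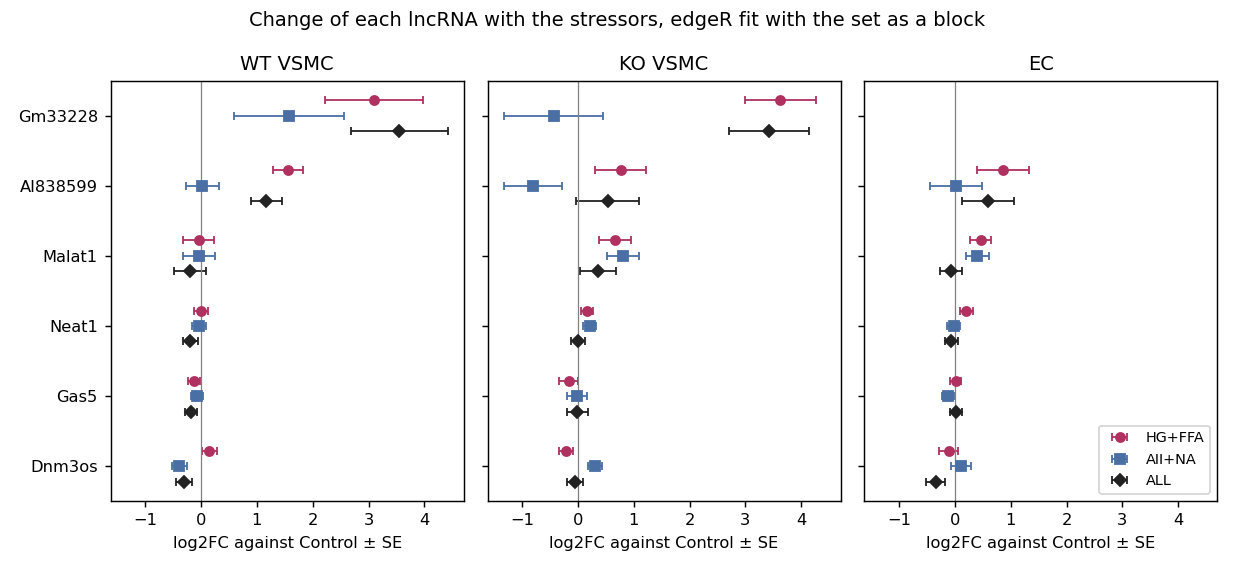
Log2FC against Control (x axis, edgeR, bars are the SE) of each lncRNA under HG+FFA, AII+NA and ALL in WT VSMC, KO VSMC and EC. Gm33228 and AI838599 lie to the right under HG+FFA and ALL in WT VSMC, with log2FC of 3.10 and 3.55 and of 1.56 and 1.17, while the values of the 4 abundant lncRNAs lie between -0.39 and 0.80. Gm33228 is not drawn for EC, where it had too few reads to be fitted.

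Gm33228 (ENSMUSG00000117604, chromosome 18, 25971890 to 26401755 of GRCm39, plus strand) spans a large locus with 51 exon blocks that add up to 13657 bases. The annotated exons of 3 other lncRNA genes overlap 1.89% of these bases. Under Control it did not exceed 1.01 FPM in any library, and its highest levels were found in WT VSMC with HG+FFA or ALL. In WT VSMC sets 1 to 4 it had 0.1501, 0.206, 0.354 and 1.01 FPM under Control and 2.47, 0.913, 5.81 and 4.54 FPM under HG+FFA. Under ALL it had 6.53, 2.93, 3.42 and 5.81 FPM. Each set was higher than its own Control library in both conditions, and under ALL the lowest library was above the highest Control library. The log2FC was 3.10 (SE 0.87) under HG+FFA and 3.55 (SE 0.87) under ALL, the latter being the contrast that chose the gene.

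Under AII+NA alone Gm33228 had 0.153, 4.48, 0.320 and 0.302 FPM in WT VSMC sets 1 to 4. Set 2 alone was high, at a level otherwise seen with HG+FFA, and the other 3 sets lay within the range of the Control libraries. The log2FC of 1.57 (SE 0.99) therefore depended on that library, and without set 2 it was -0.83. The departure of ALL from the sum of both single effects was -1.12 (SE 1.20) on the log2 scale, given without a test.

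In KO VSMC Gm33228 had 0.139, 0, 0.0334 and 0.236 FPM in sets 5 to 8 under Control and 1.77, 0, 0.777 and 2.60 FPM under HG+FFA. It was higher in 3 of 4 sets, and set 6 had no read in either library. In reads this was 10 under Control and 146 under HG+FFA over the 4 sets. The log2FC was 3.62 (SE 0.63), given without a test, because the gene passed the filter on low counts only through its libraries of HG+FFA and ALL. Under ALL, sets 6 to 8 had 0.0660, 0.278 and 2.83 FPM, all higher than Control, with a log2FC of 3.43 (SE 0.72). Under AII+NA the 4 sets had 0.100, 0, 0.133 and 0.0389 FPM, within or below the Control range, and the log2FC was -0.43 (SE 0.88).

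Subtracting the KO VSMC effect from the WT VSMC effect gave -0.53 (SE 1.36) for HG+FFA and 0.14 (SE 2.86) for ALL on the log2 scale. These are descriptions with wide errors, because the WT VSMC effect chose the gene. The Control libraries of WT and KO VSMC overlap.

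In EC Gm33228 did not pass the filter on low counts, and reads are given instead. In the 9 Control libraries together 1 read was found. In the 9 sets with both libraries 45 reads were found under HG+FFA, in 8 libraries, which relative to the reads of the libraries is 46.9 times Control (exact 95% interval 7.99 to 1892, which covers counting error only). Under ALL there were 76 reads in 6 libraries, 78.1 times Control (13.6 to 3125), and under AII+NA 3 reads in 2 libraries of 8 sets (3.31 times, 0.266 to 174).

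By animal, with sets 17 and 18 averaged, log2(FPM + 0.1) of Gm33228 was higher under HG+FFA in 7 of 8 EC animals and lower in 0. The mean difference was 1.21 ± 1.05 (SD, n = 8; p = 0.0156, exact permutation test flipping the signs of animals, two-sided, and 0.0469 adjusted over the 3 stressor conditions). The remaining animal had no reads in either condition, so 0.0156 was also the smallest p possible in this test. Under ALL it was higher in 6 animals and lower in 1, by 1.46 ± 1.43 (p = 0.0469 in the same exact test, adjusted 0.0703). Under AII+NA it was higher in 2 of 7 animals, by 0.17 ± 0.29 (p = 0.50 in the same exact test, adjusted 0.50). The other animals had no reads in either condition, so 0.50 was the smallest p possible there and the test decides nothing. Since 8 of the 9 Control libraries were at 0, these mean differences depend on the 0.1 FPM that was added and are not measured folds. The highest EC libraries, 2.37 FPM under HG+FFA and 2.71 FPM under ALL, were both from set 10, which has no Control library and took no part in these comparisons. That only HG+FFA had an adjusted p under 0.05, and not ALL or AII+NA, is no test of a difference between conditions.

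AI838599 (ENSMUSG00000085180, chromosome 4, 3231208 to 3258092 of GRCm39, plus strand) has 4940 exon bases, none of them shared with another annotated gene. Its transcript AI838599-201, with 2953 bases in 2 exons, ends as follows, shown because the libraries capture polyadenylated RNA. Capitals mark AATAAA, the canonical polyadenylation signal (GRCm39, chr4:3258033-3258092, plus strand).

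AI838599-201: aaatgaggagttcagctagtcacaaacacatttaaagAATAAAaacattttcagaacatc

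In WT VSMC sets 1 to 4 AI838599 had 0.630, 1.85, 1.14 and 2.49 FPM under Control and 2.44, 6.63, 2.49 and 6.66 FPM under HG+FFA. Under ALL the values were 1.95, 5.69, 1.40 and 5.35 FPM. Every set was higher than its Control library in both conditions, although the groups overlap, because sets 2 and 4 were high throughout. The log2FC was 1.56 (SE 0.27) under HG+FFA and 1.17 (SE 0.28) under ALL, and both contrasts chose the gene. Under AII+NA the sets had 0.344, 3.74, 1.06 and 1.55 FPM, higher than Control in set 2 and lower in the other 3, with a log2FC of 0.03 (SE 0.30). As for Gm33228, set 2 was the set with the high value under AII+NA, and without it the log2FC of AI838599 was -0.46.

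In KO VSMC AI838599 had 1.88, 0.144, 0.167 and 0.803 FPM in sets 5 to 8 under Control and 5.48, 0.0289, 0.389 and 0.866 FPM under HG+FFA. The value of 5.48 FPM was that of set 5, the set with residual Egfr RNA, and the other 3 sets stayed below 1 FPM. The log2FC under HG+FFA was 0.76 (SE 0.46, edgeR FDR 0.485), and without set 5 it was 0.12. Under ALL it was 0.53 (SE 0.56, edgeR FDR 0.76), and under AII+NA it was -0.81 (SE 0.52, edgeR FDR 0.555), lower in 4 of 4 sets. Subtracting the KO VSMC effect from the WT VSMC effect gave 0.70 (SE 0.52) for HG+FFA, 0.83 (SE 0.59) for AII+NA and 0.61 (SE 0.63) for ALL, given without a test.

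EC had a median of 0.241 FPM of AI838599 under Control (0.0337 to 4.81 FPM, n = 9) and of 0.700 FPM under HG+FFA (0.0617 to 4.13 FPM, n = 10). The groups overlap almost completely, and set 17 gave the highest library in all 4 conditions, with 4.13 to 5.23 FPM. Set 18, from the same animal, had 0 to 0.525 FPM. The log2FC in EC was 0.86 under HG+FFA (SE 0.47, edgeR FDR 0.353, higher in 7 of 9 sets), 0.02 under AII+NA (SE 0.47, edgeR FDR 0.996) and 0.60 under ALL (SE 0.46, edgeR FDR 0.57). Without EC sets 9, 11 and 13 the value under HG+FFA was 1.04.

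**Figure D2:**
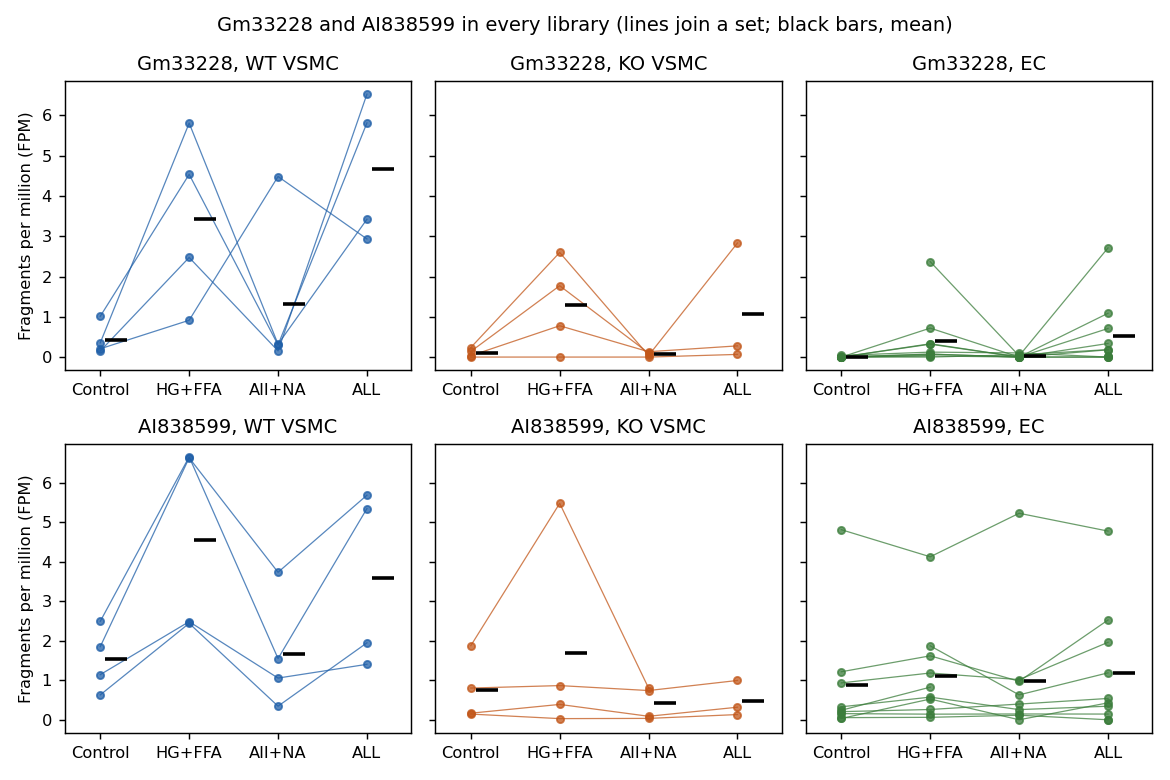
FPM (y axis) of Gm33228 and AI838599 in every library by condition (x axis) in WT VSMC, KO VSMC and EC, with horizontal bars for the mean and lines joining libraries of the same set. In WT VSMC each set lies higher under HG+FFA and ALL than under Control for both genes, and the Gm33228 point of set 2 under AII+NA (4.48 FPM) lies far above the other 3.

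Gm33228 and AI838599 varied together over the libraries of VSMC. With the mean of each set removed, Pearson's r of log2(FPM + 0.1) was 0.759 over 31 VSMC libraries and 0.338 over 38 EC libraries. These are descriptions over libraries that share sets and treatments, and both genes were picked for the same contrast. With the 4 abundant lncRNAs r in VSMC lay between -0.366, for Gm33228 and Gas5, and 0.141, for Gm33228 and Malat1. No tested gene lay within 200 kb of AI838599, and the only tested gene near Gm33228 was Celf4, an RNA-binding protein gene 84463 bases away, which was called in no stressor comparison (log2FC -0.14 to 0.33).

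The lncRNA genes were also counted as a class. In WT VSMC under ALL, 12 of 1613 lncRNA genes tested were called, which is 0.744% against the 2.24% of all genes given above, 6 of them higher and 6 lower. A call needs a mean of 3 FPM, which limits this comparison. By Control level in WT VSMC, AI838599 with 1.53 FPM ranked 535 among lncRNA genes, so most of the 1613 lay under the limit there. The lower share is therefore not a result about lncRNAs. Under HG+FFA AI838599 was the only lncRNA called in WT VSMC. Among 3 other called lncRNAs of WT VSMC under ALL, which a list of characterised lncRNAs holds, H19, the maternally expressed imprinted lncRNA, fell by 2.33 on the log2 scale (SE 0.37, edgeR FDR 0.0017). Mirg and Airn, imprinted lncRNAs too, fell by 0.69 and 0.68 on the log2 scale. In KO VSMC 3 of 1802 tested lncRNAs were called under HG+FFA (0.1665%) and 1 under ALL (0.0555%), all higher. In EC 5 of 1662 were called under HG+FFA (0.301%) and 6 under ALL (0.361%), 3 of them higher each time. The shares of all genes were 0.291% and 0.314% in KO VSMC and 0.676% and 0.636% in EC, with the same limit of 3 FPM.

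Gm56730, an uncharacterised lncRNA chosen here after its values were seen, was called in more comparisons than any other lncRNA. It rose in WT VSMC under ALL (log2FC 0.87, SE 0.23), in KO VSMC under HG+FFA (0.81, SE 0.17) and in EC under HG+FFA (1.23, SE 0.17) and ALL (1.28, SE 0.17). Gm12840 rose in WT VSMC under ALL (1.86, SE 0.43) and in EC under HG+FFA (1.65, SE 0.32) and ALL (1.53, SE 0.32).

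Malat1 (ENSMUSG00000092341, chromosome 19, 5845717 to 5853602 of GRCm39, minus strand) is annotated here as 1 exon block of 7886 bases. Exons of other genes overlap 12.6% of it, mainly the antisense lncRNA Gm59785, and whether strand was used in counting is not given in the sources used here. Near its 3′ end Malat1 carries a U-rich and A-rich element that folds into a stabilising triple helix, and Neat1 ends in a related element. Both are shown because Malat1 and Neat1 are the abundant nuclear members, with capitals for a run of 16 bases that both share and for the A-rich stretch that follows it. The Malat1 sequence is chr19:5846010-5846069, 293 bases before the end of Malat1-201, and the Neat1 sequence is chr19:5874736-5874795, the last 60 bases of Neat1-201, both on the minus strand of GRCm39.

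Malat1-201: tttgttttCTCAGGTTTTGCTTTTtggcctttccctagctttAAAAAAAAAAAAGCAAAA

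Neat1-201: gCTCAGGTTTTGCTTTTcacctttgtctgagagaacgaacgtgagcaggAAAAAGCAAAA

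On the transcript strand AAAAAGCAAAA occurred in the last 60 bases of 286 of 474288 annotated transcripts of at least 200 bases (0.0603%). This share applies to the end of Neat1-201 only, because the stretch of Malat1-201 lies outside its last 60 bases. The annotated ends themselves differ. AATAAA, in capitals below, lies in the last 60 bases of Malat1-201 (chr19:5845717-5845776) and of the short isoform Neat1-202 (chr19:5892327-5892386), but not of the long isoform Neat1-201, whose end is the A-rich stretch above. AATAAA occurred in the last 60 bases of 49.2% of all transcripts and 46.7% of 151497 lncRNA transcripts, and a match or its absence says nothing of the RNA measured.

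Malat1-201: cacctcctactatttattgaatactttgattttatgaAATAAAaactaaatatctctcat

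Neat1-202: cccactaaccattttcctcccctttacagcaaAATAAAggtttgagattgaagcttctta

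In WT VSMC sets 1 to 4 Malat1 had 442, 729, 990 and 415 FPM under Control and 678, 723, 672 and 459 FPM under HG+FFA. Under AII+NA the values were 722, 988, 404 and 467 FPM, and under ALL 1035, 634, 386 and 329 FPM. All 4 conditions overlap, and the sets went different ways, with set 1 higher than Control under all stressors and set 3 lower. The log2FC in WT VSMC was -0.04 under HG+FFA (SE 0.28, edgeR FDR 0.979), -0.04 under AII+NA (SE 0.28, edgeR FDR 0.982) and -0.19 under ALL (SE 0.29, edgeR FDR 0.766).

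In KO VSMC sets 5 to 8 Malat1 had 361, 237, 237 and 417 FPM under Control and 234, 292, 1002 and 899 FPM under HG+FFA. Under AII+NA it had 456, 325, 983 and 725 FPM. Sets 7 and 8 carried most of the difference, and set 5 was lower than Control under HG+FFA. The log2FC was 0.67 under HG+FFA (SE 0.29, edgeR FDR 0.36), 0.80 under AII+NA (SE 0.28, edgeR FDR 0.509, higher in 4 of 4 sets) and 0.36 under ALL (SE 0.32, edgeR FDR 0.705). Leaving out set 5 made Malat1 a DEG under HG+FFA with a log2FC of 1.08. The share of all genes called without set 5 is not given here, so that call has no background to be set against. The difference of the effects, WT VSMC minus KO VSMC, was -0.71 for HG+FFA (SE 0.44, edgeR FDR 1.0), -0.84 for AII+NA (SE 0.44, edgeR FDR 0.432) and -0.55 for ALL (SE 0.47, edgeR FDR 0.813).

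EC had the widest range of Malat1, with a median of 641 FPM under Control (285 to 1940 FPM), 882 FPM under HG+FFA (362 to 2848 FPM), 971 FPM under AII+NA (427 to 3218 FPM) and 627 FPM under ALL (239 to 2880 FPM). The conditions overlap throughout, and the highest library of each was that of set 17. Under HG+FFA 9 of 9 sets were above their Control library, and the log2FC was 0.46 (SE 0.19, edgeR FDR 0.196). It was 0.40 under AII+NA (SE 0.20, edgeR FDR 0.717) and -0.06 under ALL (SE 0.20, edgeR FDR 0.919).

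Of 15 genes for nuclear speckle and splicing factors, 15 were tested and 0 called in each of the 9 stressor comparisons. The median log2FC of the list was between -0.05, in WT VSMC under AII+NA, and 0.17, in KO VSMC under AII+NA, where the median of all genes was -0.01 and 0.01. The genes whose pattern over 31 VSMC libraries was most like that of Malat1, among 12159 genes with at least 3 FPM, were Xpnpep3 (Pearson's r 0.846), the kinase gene Hipk2 (0.836) and Zbtb20 (0.836), a transcriptional repressor gene. Of 20 tested genes within 200 kb of Malat1 in VSMC and 19 in EC, Neat1 among them, 0 were called.

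Neat1 (ENSMUSG00000092274, chromosome 19, 5874736 to 5897132 of GRCm39, minus strand) covers 22397 bases, all in 1 exon block of the long isoform Neat1-201, while Neat1-202 has 3014 bases. The counts are per gene and cannot tell the isoforms apart. In WT VSMC sets 1 to 4 Neat1 had 114, 192, 458 and 338 FPM under Control and 112, 209, 480 and 302 FPM under HG+FFA. Under AII+NA it had 137, 247, 342 and 261 FPM, and under ALL 128, 199, 327 and 243 FPM. The order of the sets was the same in all 4 conditions, set 1 lowest and set 3 highest.

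Neat1 was the most set-bound member in VSMC. Differences between sets took 92.3% of its variance on the log2 scale in WT VSMC and 93.3% in KO VSMC, and differences between conditions took 1.38% and 2.02%. In EC the shares were 74.02% and 5.05%. Set means were 123 to 402 FPM in WT VSMC, 178 to 489 FPM in KO VSMC and 177 to 446 FPM in EC, and the 3 ranges overlap. The log2FC over the 9 stressor comparisons lay between -0.19, in WT VSMC under ALL (SE 0.13, edgeR FDR 0.438), and 0.21, in KO VSMC under AII+NA (SE 0.12, edgeR FDR 0.518). Neat1 was higher than Control under HG+FFA in 4 of 4 KO VSMC sets, with a log2FC of 0.16 (SE 0.12, edgeR FDR 0.552).

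All 14 genes of paraspeckle proteins were tested and 0 were called under any stressor. The median log2FC of the list lay between -0.01, in EC under AII+NA, and 0.11, in KO VSMC under ALL. Between cell types, in Control libraries, 2 of the 14 were called, both higher in EC than in WT VSMC, where 9.9% of all genes were called. These were Sfpq, the core paraspeckle protein (log2FC 0.81, SE 0.18, edgeR FDR 0.0138), and Cpsf6, a 3′ processing factor (0.85, SE 0.24, edgeR FDR 0.0384). Neat1 itself had a log2FC of 0.01 (SE 0.35, edgeR FDR 0.993) between EC and WT VSMC.

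Across the 10 EC sets Neat1 followed the summed FPM of the speckle and splicing list, with a Pearson's r of 0.875 on the log2 scale and a Spearman's rho of 0.830, while r with the paraspeckle list was 0.451. Neat1 also had an r of 0.723 and a rho of 0.721 with 5 cardiomyocyte markers, whose summed set means were 2.25 to 273 FPM. That sum is nearly all Tnnt2 (median 92.8 FPM in EC), while Myh6, the cardiac myosin, was at 0 in all 38 EC libraries and Actn2 and Nppa had medians of 0. The part of cell composition in the level of Neat1 was not tested. For Malat1 r was 0.647 with the speckle list, 0.517 with the paraspeckle list and 0.475 with the cardiomyocyte markers. Sets 17 and 18, which share an animal, were highest in Neat1 (446 and 401 FPM), in Malat1 (2722 and 1429 FPM) and in the speckle list (3583 and 3663 FPM). Malat1 and Neat1, with set means removed, had an r of 0.495 over 31 VSMC libraries and 0.711 over 38 EC libraries, the highest of any pair of members in EC. The libraries share sets and treatments, and these are descriptions. The genes most like Neat1 in VSMC were the microRNA host Mir100hg (r 0.795), the chromatin remodeller gene Chd2 (0.747) and Cep95 (0.732). The genes within 200 kb of Neat1, 22 tested in VSMC and 21 in EC, held 0 DEG.

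**Figure D3:**
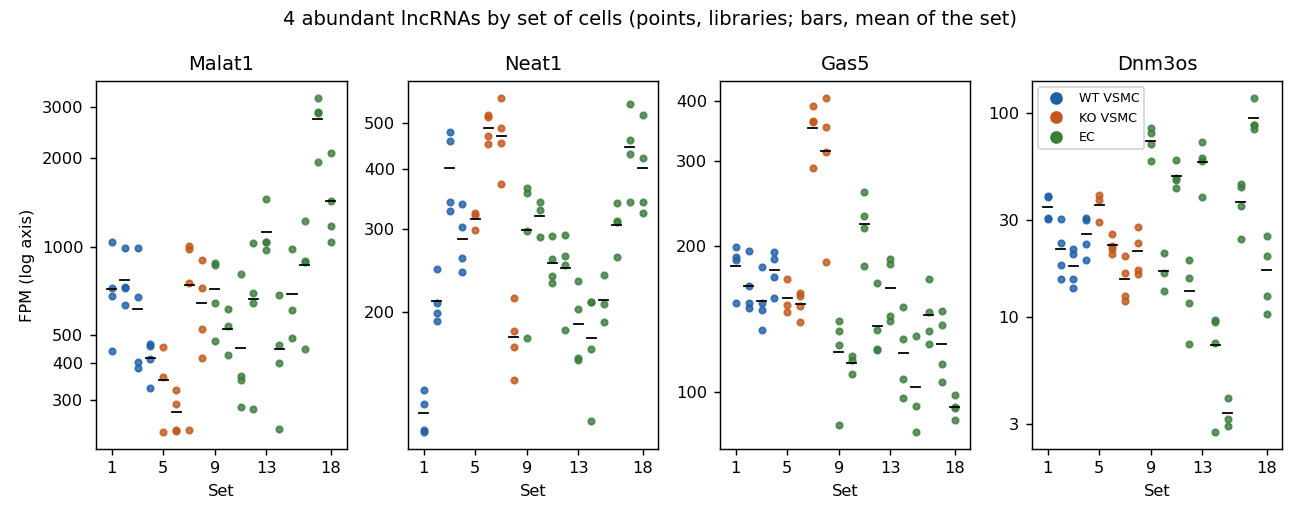
FPM (y axis, log scale) of Malat1, Neat1, Gas5 and Dnm3os by set (x axis, sets 1 to 4 WT VSMC, 5 to 8 KO VSMC, 9 to 18 EC), with a point for each library coloured by cell type and a bar for the mean of the set, on a y axis of its own for each gene. The points of a set lie close together compared with the distance between sets for Neat1 and for Dnm3os in EC, the means of KO VSMC sets 7 and 8 stand above those of the other VSMC sets for Gas5, and EC set 17 is highest for Malat1.

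Gas5 (ENSMUSG00000053332, chromosome 1, 160861793 to 160866118 of GRCm39, plus strand) is a compact gene with many annotated transcripts, of which Gas5-201 has 9 exons and 1316 bases. Of its exon bases 29.1% lie in exons of other genes, the snoRNAs it hosts among them, so that some of its reads may have been counted elsewhere. In WT VSMC sets 1 to 4 it had 190, 166, 181 and 189 FPM under Control and 199, 149, 148 and 173 FPM under HG+FFA. Under AII+NA it had 188, 153, 153 and 195 FPM, and under ALL 153, 195, 134 and 157 FPM. It was the steadiest member there, with an SD of 0.18 on the log2 scale over 16 libraries against 0.469 to 1.82 for the other 5. The log2FC in WT VSMC was -0.13, -0.08 and -0.18 under HG+FFA, AII+NA and ALL (SE 0.11 each, edgeR FDR 0.361 to 0.87).

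In KO VSMC the sets lay far apart. Sets 7 and 8 had means of 351 and 314 FPM, and the other 6 VSMC sets had 152 to 182 FPM. The other genes of the snoRNA host list stood apart in the same sets, with a summed level of 498 and 508 FPM in sets 7 and 8 against 259 to 359 FPM in the other VSMC sets. Within set 8 Gas5 had 405 FPM under Control and 185 FPM under HG+FFA, the largest move of Gas5 between libraries of a VSMC set. The log2FC in KO VSMC was -0.16, -0.02 and -0.01 under HG+FFA, AII+NA and ALL (edgeR FDR 0.697 to 0.993). KO against WT VSMC under Control gave 0.47 (SE 0.31, edgeR FDR 0.517), where 0.00622% of all genes were called.

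In EC Gas5 had a median of 135 FPM under Control (82.6 to 259 FPM) and of 127 FPM under HG+FFA (93.6 to 219 FPM), and the log2FC were 0.01, -0.12 and 0.02 under HG+FFA, AII+NA and ALL (SE 0.10 to 0.11, edgeR FDR 0.803 to 0.966). Set 11, with low endothelial markers, had the highest Gas5 level (mean 223 FPM). Over the 10 EC sets Pearson's r of Gas5 was 0.902 with the summed smooth muscle markers (Spearman's rho 0.778) and -0.604 with the endothelial markers, on the log2 scale. It was also 0.730 with the fibroblast markers, 0.718 with the snoRNA host list and -0.632 with the speckle and splicing list. The smooth muscle sum (median 624 FPM in EC) is mostly Acta2 (515 FPM), while Tagln and Myh11 had medians of 3.95 and 2.95 FPM. The part of cell composition in the level of Gas5 was not tested.

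Of 20 snoRNA host genes, Gas5 included, 18 were tested and 0 called under any stressor. The median log2FC of the tested genes lay between -0.21, in WT VSMC under ALL, and -0.03, in EC under AII+NA. That of all genes lay between -0.01 and 0.01 and that of all lncRNA genes between -0.15 and 0.05, and comparisons within a cell type share their Control libraries. The 14 genes of nonsense-mediated decay, the pathway that degrades Gas5, held 0 DEG, with medians between -0.03 and 0.04. The genes most like Gas5 in VSMC were Anp32a (r 0.884), Lyar (0.875), a nucleolar protein gene, and Hmgb1 (0.830), which encodes a chromatin protein. Of 6 or 7 tested genes within 200 kb, 0 were called.

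Dnm3os (ENSMUSG00000078190, chromosome 1, 162045192 to 162053119 of GRCm39, plus strand) is annotated as 1 exon block of 7928 bases on the strand opposite to Dnm3. The precursors of miR-199a and miR-214 lie within it and take 2.77% of its bases. Their mature sequences are shown because they are the known products of this transcript, as RefSeq gives them with the GRCm38.p6 build, with the seed (bases 2 to 8) in capitals.

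miR-199a-5p: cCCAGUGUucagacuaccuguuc

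miR-199a-3p: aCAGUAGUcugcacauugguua

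miR-214-5p: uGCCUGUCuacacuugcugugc

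miR-214-3p: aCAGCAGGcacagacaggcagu

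The 4 seeds differ from each other. The count rows of Mir199a-2 and Mir214 themselves were at 0 in all libraries, and these libraries do not measure mature microRNAs. The transcript ends with the following 60 bases (chr1:162053060-162053119 of GRCm39, plus strand), with AATAAA in capitals.

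Dnm3os-201: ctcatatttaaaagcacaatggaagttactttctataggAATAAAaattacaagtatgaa

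In WT VSMC sets 1 to 4 Dnm3os had 30.5, 23.1, 21.6 and 30.6 FPM under Control and 30.2, 18, 15.4 and 19.1 FPM under AII+NA. All 4 sets were lower than their Control library, set 1 by very little. In KO VSMC sets 5 to 8 it had 37.7, 22.5, 16.4 and 16.4 FPM under Control and 39.8, 25.5, 20.0 and 27.7 FPM under AII+NA, higher in all 4 sets. The groups overlap in both genotypes. The log2FC was -0.39 in WT VSMC (SE 0.14, edgeR FDR 0.334) and 0.31 in KO VSMC (SE 0.13, edgeR FDR 0.509). The difference of the effects was -0.69 (SE 0.19), with an unadjusted p of 0.00155 and an FDR of 0.395 in edgeR and an FDR of 0.297 in DESeq2. It kept its sign without any of the 8 sets (-0.80 to -0.56). Of all genes tested for this difference 0.0% were called, while 2180 had an unadjusted p under 0.05 in edgeR and DESeq2 alone called 0.

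Under HG+FFA Dnm3os had a log2FC of 0.15 in WT VSMC (SE 0.13, edgeR FDR 0.742) and of -0.21 in KO VSMC (SE 0.13, edgeR FDR 0.491), and the difference of 0.36 (SE 0.19) had an edgeR FDR of 1.0. Under ALL the values were -0.31 in WT VSMC (SE 0.14, edgeR FDR 0.205, lower in 3 of 4 sets) and -0.05 in KO VSMC (SE 0.14, edgeR FDR 0.929). The share of all genes called for a difference between genotypes was 0.0% for HG+FFA, with 564 genes at an unadjusted p under 0.05 and 0 by DESeq2 alone, and 0.0109% for ALL. For the departure of ALL from the sum of both single effects in WT VSMC it was 0.0%, with 290 genes at an unadjusted p under 0.05 and 0 by DESeq2 alone. The departure was -0.07 for Dnm3os (SE 0.19), 0.02 for Gas5 (SE 0.15), -0.15 for Neat1 (SE 0.18) and -0.11 for Malat1 (SE 0.40), all with an edgeR FDR of 1.0.

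In EC the level of Dnm3os followed the set far more than the condition, with 93.2% of the log2 variance between sets and 3.91% between conditions. Set means ran from 3.40 FPM in set 15 to 94.0 FPM in set 17, a 27.6-fold range, while WT VSMC ranged from 17.8 to 34.7 FPM. Under Control the median was 25.0 FPM (2.96 to 119 FPM, n = 9) and under ALL 28.1 FPM (2.75 to 87.5 FPM, n = 10), with complete overlap. The log2FC was -0.11, 0.11 and -0.34 under HG+FFA, AII+NA and ALL (SE 0.17, edgeR FDR 0.807, 0.894 and 0.327).

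Across the EC sets Dnm3os rose with fibroblast markers, and with other lists too, and fell with endothelial markers. Pearson's r on the log2 scale was 0.775 with the summed level of 7 fibroblast markers (865 to 21330 FPM, Spearman's rho 0.794) and -0.790 with that of the 8 endothelial markers (57.2 to 4215 FPM, rho -0.818), over 10 sets from 9 animals and as a description. The r was also 0.746 with the snoRNA host list (rho 0.697), 0.553 with the smooth muscle markers and 0.505 with the cardiomyocyte markers. The low-endothelial sets 9, 11 and 13 had 73.2, 49.1 and 57.3 FPM of Dnm3os, 3 of the 4 highest means. Set 17, the highest, had 537 FPM of endothelial and 7263 FPM of fibroblast markers. The summed fibroblast markers were higher in WT VSMC than in EC (median 11700 against 4559 FPM over all libraries). That sum is mostly Col1a1, Col1a2 and Dcn (medians 3908, 5872 and 1444 FPM in WT VSMC, 1701, 1508 and 828 FPM in EC). Every gene of the list had a higher median in WT VSMC except Tcf21 (0.491 FPM, against 19.9 FPM in EC). Among the WT VSMC sets, set 1 had the lowest fibroblast sum (8680 FPM) and the highest Dnm3os mean (34.7 FPM), and set 4 had 21310 and 25.6 FPM. Among the KO VSMC sets, set 5 was highest in both (12450 and 35.55 FPM). Between EC and WT VSMC under Control the log2FC was 0.64 (SE 0.70, edgeR FDR 0.567) and without EC sets 9, 11 and 13 it was 0.36. Of the fibroblast markers, the collagen genes fell in EC, Col1a1 under HG+FFA (log2FC -0.74) and Col1a2 under HG+FFA (-0.72) and ALL (-0.64). The part of fibroblast RNA in the level of Dnm3os was not tested.

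**Figure D4:**
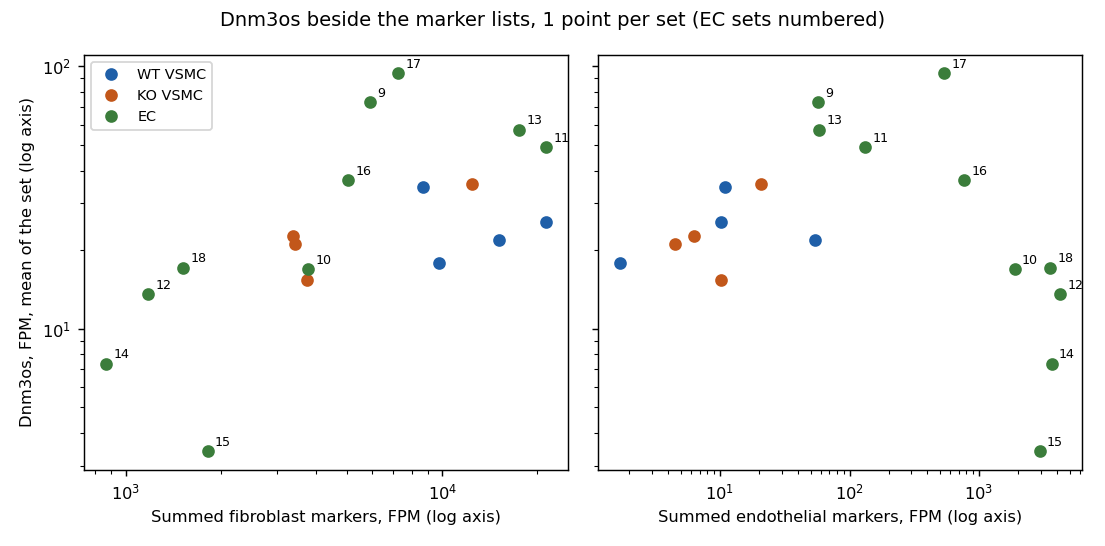
Mean FPM of Dnm3os (y axis, log scale) against the summed FPM of fibroblast markers and of endothelial markers (x axes, log scale), with a numbered point for each of the 10 EC sets and a point for each of the 8 VSMC sets. Over EC sets Dnm3os is higher where fibroblast markers are high (r 0.775) and lower where endothelial markers are high (r -0.790), and sets 9, 11, 13 and 17 are at the top.

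Of the 10 genes listed for the Dnm3os locus and its known regulators and partners, Dnm3os included, 8 were tested. Sox9, a transcription factor of mesenchymal cells, fell in EC under HG+FFA (log2FC -0.66, SE 0.16, edgeR FDR 0.0167), and no other gene of the list was called under a stressor. Twist1, a transcription factor known to activate Dnm3os, ranged over set means from 50.9 to 66.8 FPM in VSMC and from 18.8 to 110 FPM in EC. Between EC and WT VSMC Twist2 was lower in EC (log2FC -2.0, SE 0.59) and Sox9 higher (1.41, SE 0.36). Dnm3, the gene in which Dnm3os lies, had means of 1.33 to 3.91 FPM over the VSMC sets and was called in no stressor comparison. The genes most like Dnm3os over the VSMC libraries were Osgin2 (r 0.833), Zfp788 (0.801) and the lncRNA Gata6os (0.796).

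Between genotypes and cell types none of the 4 abundant lncRNAs passed the test. The genotype comparison under Control could miss large differences. It called 0 genes as lower in KO VSMC, not even Egfr (median 376 FPM in WT and 1.22 FPM in KO VSMC), while DESeq2 alone called 300 genes. The lack of a call there does not show equal levels. Between genotypes Malat1 had the lowest FDR of the 4, with 313 ± 90.5 FPM (SD, n = 4) in KO VSMC against 644 ± 271 FPM (SD, n = 4) in WT VSMC under Control. The log2FC was -1.05 (SE 0.33, edgeR FDR 0.364, DESeq2 FDR 0.081). Averaged over all conditions the difference of the set means was -0.44 on the log2 scale (p = 0.257, two-sided exact permutation test of 4 sets against 4, where 0.0286 is the smallest p possible). The same exact test gave p = 0.314 for Neat1, 0.40 for Gas5 and 0.80 for Dnm3os, and none of these is adjusted for the 4 genes.

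Between EC, with sets 17 and 18 counted as 1 animal, and WT VSMC the exact permutation p over set means was 0.543 for Malat1, 0.643 for Neat1, 0.0769 for Gas5 and 0.909 for Dnm3os (9 against 4, smallest possible p 0.0014), again without adjustment. The test treats sets 9 and 10 as independent of sets 1 and 2, with which they share animals. Gas5 was lower in EC by 0.35 on the log2 scale in this comparison. For Dnm3os the sign differed between scales, since the mean difference of the set means was -0.10 whereas edgeR gave 0.64 under Control. These values carry the difference between the batches as well as that between the cells.

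In WT VSMC differences between conditions took 63.5% of the log2 variance of Gm33228 and 40.0% of that of AI838599, both chosen for this, and 1.38% to 24.2% of that of the 4 abundant lncRNAs. In KO VSMC they took 38.7% of the variance of Gm33228 and 7.03% of that of AI838599, of which 83.3% lay between sets. In EC the shares were 31.5% for Gm33228 and 2.69% for AI838599. The EC value for Gm33228 rests on libraries with few reads.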

How the data were processed

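The authors aligned poly(A) RNA-Seq reads to the mouse genome mm39 with HISAT2 2.1.0, assigned them to exons with featureCounts, counting reads with several alignments, and deposited raw counts per gene for each library, not normalized or filtered. Strand and read-pair settings were not given in the sources used here. Libraries held 17166133 to 43240489 counts. No reads were aligned here.

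Members and gene lists were chosen with earlier results of these data known. Symbols, positions and transcripts came from GENCODE M39 (GRCm39), and 0.0241% of counts were on other identifiers. edgeR 4.0.16 (TMM, filterByExpr, quasi-likelihood test) and DESeq2 1.42.0 were fitted over all genes per cell type, with condition and set as a block. The Benjamini-Hochberg method adjusted p-values over all genes, and the log2FC given are those of edgeR. Interactions were fitted over both VSMC genotypes, and levels over Control libraries only. A pseudocount of 0.1 FPM was used for log2 values. For Gm33228 in EC, which did not pass the count filter, an exact sign-flip permutation test over animals was added after seeing the data.

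Sets pair libraries by title and animal. The correlation of deviations from the condition means within a set was on average 0.818, 0.804 and 0.858 in WT VSMC, KO VSMC and EC (lowest 0.495). No library was a duplicate. In simulated data 96%, 94% and 97% of 200 genes with a log2FC of 1 under ALL were recovered in WT VSMC, KO VSMC and EC.

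Genes named are the members, called genes of the lists with the largest |log2FC|, partners of a lncRNA, tested genes within 200 kb of a member, and the 3 genes with the highest r to each member (log2(FPM + 0.1), set means removed, VSMC, at least 3 FPM). Gm33228 (mean 1.56 FPM in VSMC) and AI838599 (1.88 FPM) were under that minimum. The alternatives were another normalization, no count filter, each tool alone, no block, only the conditions compared and sets left out.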

Additional observations from a re-analysis of the deposited data

Results flagged for a closer look

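In 13 of 66 groups of 4 to 10 libraries the value of a library lay far from the others. For independent normal values chance gives about 1 in 20, and FPM near 0 are not such values. EC set 17 gave 6 of the 13. Gm33228 was far above the rest in WT VSMC set 2 under AII+NA (4.48 FPM, others 0.153 to 0.320), in EC set 10 under HG+FFA (2.37 FPM, others 0 to 0.719) and ALL (2.71 FPM, others 0 to 1.09), and in EC set 16 under Control (0.0411 FPM, which is 1 read, others 0).

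AI838599 stood apart in KO VSMC set 5 under HG+FFA (5.48 FPM, others 0.0289 to 0.866) and in EC set 17 in every condition, with 4.81 FPM under Control, 4.13 FPM under HG+FFA, 5.23 FPM under AII+NA and 4.78 FPM under ALL. The same EC set was apart for Malat1 under AII+NA (3218 FPM, others 427 to 1223) and ALL (2880 FPM, others 239 to 1037). Gas5 was high in KO VSMC set 7 under HG+FFA (361 FPM, others 151 to 185) and in EC set 11 under Control (259 FPM, others 82.6 to 171).

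The effect of AII+NA on Dnm3os had opposite signs in every set of the 2 genotypes. The log2 ratio to Control was near 0 in WT VSMC set 1 (-0.0168) and small in KO VSMC set 5 (0.0771). How many of all genes split in this way was not counted. The mean log2 ratio to Control was -0.385 in WT VSMC and 0.324 in KO VSMC, a difference of -0.709, and the interaction test of edgeR gave an unadjusted p of 0.00155 and an FDR of 0.395.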

How the results depend on the processing

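The count of members called was 0 under every alternative run for the 15 comparisons, except that 1 member, Malat1, was called in KO VSMC under HG+FFA without set 5 (range 0 to 1). The shares of all genes called under the alternatives are not given here. The log2FC of Gm33228 and AI838599 under HG+FFA and ALL kept their sign in WT VSMC under all alternatives run. Alternatives that left out EC set 10, EC set 17 or EC sets 9, 11 and 13 were chosen after seeing the data.

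Signs turned for values near 0. Without the replicate block, which changed no call of a member, log2FC became 0.00097 for Neat1 (WT VSMC, HG+FFA), 0.0020 for Malat1 (WT VSMC, AII+NA), 0.0316 for Gas5 (KO VSMC, AII+NA), -0.63 for AI838599, 0.0406 for Neat1 and 0.15 for Gas5 (KO VSMC, ALL, where set 5 has no library), -0.0342 and -0.0673 for Gas5 (EC, HG+FFA and ALL), 0.0261 for Neat1 (EC, AII+NA) and 0.0939 for the genotype difference of Dnm3os (ALL). With only the conditions compared it became 0.04998 for Malat1 and 0.0058 for Neat1 (WT VSMC, HG+FFA), -0.0245 for AI838599 and 0.0314 for Malat1 (WT VSMC, AII+NA) and 0.0381 for Neat1 (KO VSMC, ALL). Without the count filter it became 0.0032 for Neat1 (WT VSMC, HG+FFA) and -0.0115 (EC against WT VSMC). Without EC sets 9, 11 and 13 it became -0.15 for AI838599 and 0.10 for Neat1 (AII+NA), and without EC sets 15 and 16 -0.0138 for Dnm3os (AII+NA) and -0.0364 for Gas5 (ALL). The causes were not tested.

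Leaving out sets turned further signs. In WT VSMC the log2FC of Malat1 ranged from -0.19 to 0.23 under HG+FFA, from -0.22 to 0.43 under AII+NA and from -0.67 to 0.26 under ALL, that of Neat1 from -0.0368 to 0.0628 under HG+FFA and from -0.16 to 0.10 under AII+NA, and under AII+NA that of Gm33228 from -0.83 to 2.67 and that of AI838599 from -0.46 to 0.29. In KO VSMC Gas5 ranged from -0.31 to 0.12 under HG+FFA, from -0.16 to 0.0521 under AII+NA and from -0.11 to 0.13 under ALL, Gm33228 from -1.27 to 0.42 under AII+NA, and under ALL Malat1 from -0.03995 to 0.58, Neat1 from -0.13 to 0.13 and Dnm3os from -0.28 to 0.0786. In EC Dnm3os ranged from -0.11 to 0.0120 under HG+FFA and Neat1 from -0.0729 to 0.0103 under AII+NA. Neat1 in EC against WT VSMC ranged from -0.26 to 0.36.

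Depth limits Gm33228 most, with 1150 reads over all libraries of WT VSMC, 246 over those of KO VSMC and 226 over those of EC. Values from KO VSMC rest on 4 sets that differ in residual Egfr. P-values measure the spread between sets of cells, and EC sets 17 and 18 were separate blocks although they share an animal.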
